A study of Mus musculus with 4 samples.

Results

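A 60 kb stretch of mouse chromosome 7, chr7:82880001-82940000 in mm9, held MILI-bound small RNAs from the end of Akap13 on the plus strand and from AU020206 on the minus strand, 2 genes that point towards each other. Its members were every row of the pooled list with its 5′ end in that stretch, which gave 9443 distinct sequences of 4906138, or 0.192%. The libraries were made from MILI immunoprecipitates of C57BL/6 testes at 14 dpp (days post partum), 2 libraries from Tdrd9-/- mice and 2 from Tdrd9+/- mice. The list pools all 4 libraries and names no library and no read count. The genotypes could therefore not be compared, the depth of each library is unknown, and an RNA counts once however abundant it was. The labels do not say how many animals entered a library. The stretch was chosen by its number of listed sequences on both strands and by the direction of its strands, so the number of its sequences and the layout of its strands are given as a description. Intervals are exact Clopper-Pearson 95% intervals, and they cover counting error over distinct sequences only, which overlap one another and are not replicates.

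MILI (Piwil2) is a PIWI protein of male germ cells that binds piRNAs and, with MIWI2 and the helicase TDRD9, silences retrotransposons. Primary piRNAs are cut from long single-stranded precursors, which can be noncoding cluster transcripts or messenger RNAs, and mostly begin with U. Secondary piRNAs arise when a PIWI protein slices a transcript opposite a bound piRNA, which leaves partners that overlap by 10 nt and an A at position 10 of the new piRNA. Akap13 encodes a protein kinase A anchoring protein. AU020206 is annotated as a long noncoding RNA, and no role is given to it here.

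The sequences below are those at the fullest 5′ ends, 3 on each strand, where an end is fuller the more sequences of different length begin there. They are shown because the most distinct sequences were listed there, which is not a measure of abundance. Each end is given by its longest listed sequence, 5′ to 3′, with the first base in capitals and U written as T.
Akap13 exon 38, plus strand, chr7:82897289-82897318, 9 sequences of 20 to 30 nt: Tgaagaaccgtaacagcaagaagctagttg
Akap13 intron 37, plus strand, chr7:82895397-82895424, 7 sequences of 22 to 28 nt: Tcgaaacttgtaggaaggggcgtcagaa
Akap13 exon 38, plus strand, chr7:82897501-82897530, 7 sequences of 24 to 30 nt: Tagacctgacagaaaatcagagagccctgc
AU020206 3009-nt exon, minus strand, chr7:82915831-82915861, 10 sequences of 22 to 31 nt: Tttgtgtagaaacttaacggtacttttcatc
AU020206 intron, minus strand, chr7:82924131-82924160, 10 sequences of 18 to 30 nt: Tgacaatagagagagcgatgaagtgctgac
AU020206 3009-nt exon, minus strand, chr7:82914542-82914571, 9 sequences of 22 to 30 nt: Tgaggacccgcaatgaagcaaatggctgtt
All 6 begin with U, and 2 of the 6 come from introns.

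The cluster consisted of 2 blocks on opposite strands that did not meet. The minus strand held 7605 sequences at 3414 distinct 5′ ends, 80.5% of the sequences (79.7–81.3%), and the plus strand held 1838 at 992 ends. The annotated genes were placed in mm9 by the sequences that match their transcripts exactly. By that placement the last exon of Akap13 ends at 82899495 and AU020206 runs from 82913924 to 82926985, which leaves 14428 nt between them. Plus-strand 5′ ends in Akap13 from exon 36 to its annotated end made up 94.9% of that strand (93.8–95.9%). Minus-strand 5′ ends inside AU020206 made up 95.5% of theirs (95.04–95.98%). The name of a convergent cluster thus fits the direction of the genes, while the dense blocks lay apart. The edges were sparse, with 53 sequences in the first 10 kb and 20 in the last 10 kb, against 50 in the 20 kb to the left and 7 in the 20 kb to the right.

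**Figure D1:**
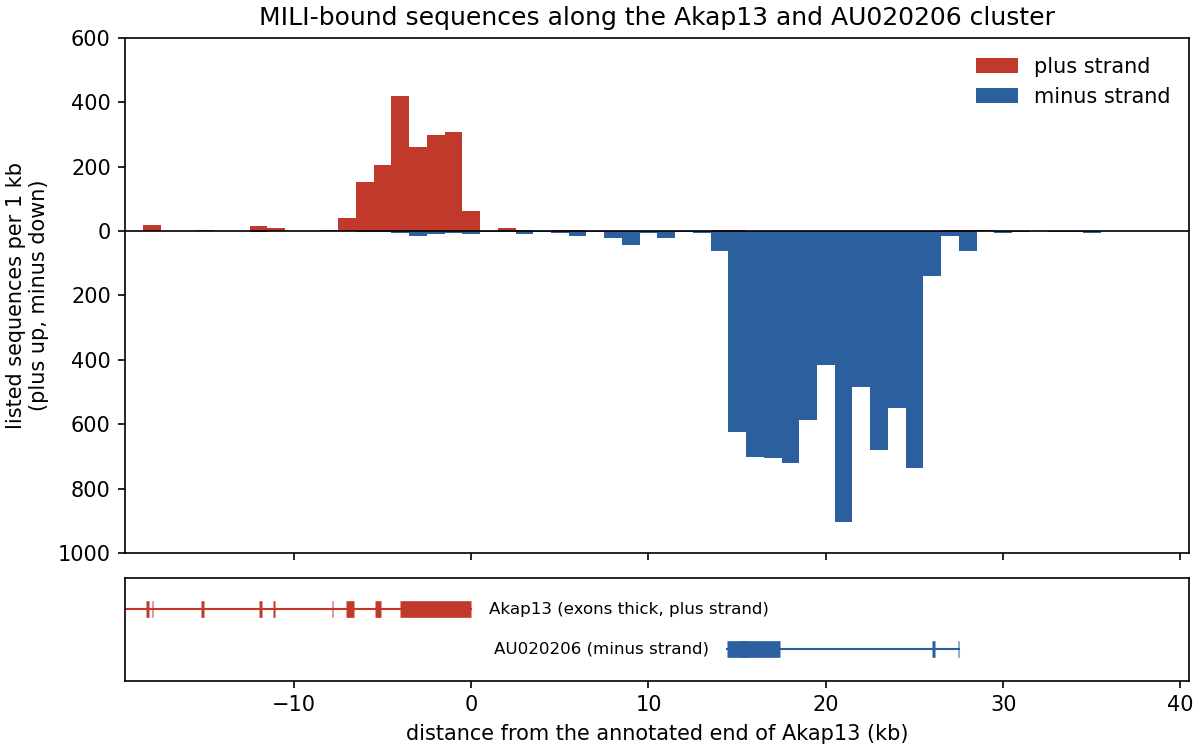
Listed MILI-bound sequences per 1 kb by 5′ end along the cluster (vertical axis, plus strand upwards and minus strand downwards) against the distance from the annotated end of Akap13 (kb), with the annotated exons as thick bars under the plot. The plus-strand block ends with Akap13, and the minus-strand block fills most of AU020206, with a peak of 903 sequences in 1 kb.

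Akap13 gave sequences from its last 2 introns as well as from its last 3 exons. Exon 38, the last exon, starts at 82895460 and holds 47 coding nt, the stop codon and 3986 nt of 3′ UTR. It held 1183 sequences at 615 ends, or 152 ends per kb. Intron 37 (82894397–82895459) held 272 sequences at 130 ends per kb, and exon 37 (82894066–82894396) held 93 at 148 ends per kb. Introns are removed when the messenger RNA is spliced. Intron 36 (82892914–82894065) held 157 sequences at 79.9 ends per kb and exon 36 (82892464–82892913) held 40 at 57.8 ends per kb. The 2 introns together held 429 sequences, 23.3% of the plus strand (21.4–25.3%), at 104 ends per kb over 2215 nt. Farther left the gene was sparse between its exons: from exon 1 to exon 36, the placed exons held 343 sequences at 36.1 ends per kb, and the 285175 nt between them held 119 at 0.396 ends per kb. That stretch includes 911 nt of 11 exons that no sequence could place.

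Along the spliced messenger RNA of Akap13 the 3′ UTR was the densest part. The 12597-nt transcript Akap13-205 matched 1660 sequences of the whole list in sense, 295 of them left of the cluster. The 3′ UTR held 1161 of these (69.9%) at 152 ends per kb. The coding sequence held 497 at 39.7 ends per kb over 8385 nt, and the 226-nt 5′ UTR held 2. Sequences of 27 of its 38 exons were listed, with 178 in the 3064-nt exon 7. Transcript matches in sense to Akap13 covered 74.3% of the plus-strand sequences (72.2–76.3%), and the others lay mainly in the introns above.

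Past the annotated end of Akap13 the plus strand was nearly empty. The 14428 nt between the genes held 23 plus-strand sequences at 18 ends, or 1.25 ends per kb. AU020206 held 8 plus-strand sequences in its 13062 nt, and the 13015 nt to its right held 12.

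AU020206 gave sequences along most of its unspliced length. The gene has 2 annotated transcripts, AU020206-202 with a single exon of 3009 nt (82913924–82916932) and AU020206-201 with 3 exons that sum to 656 nt. Minus-strand 5′ ends in the 3009-nt exon numbered 861 with 1978 sequences, or 286 ends per kb. The 8578 nt between that exon and exon 2 of AU020206-201, which lie in no annotated exon, held 5235 sequences at 2267 ends, or 264 ends per kb. That unannotated stretch supplied 68.8% of the minus strand. All positions of the gene outside exons held 69.2% (68.2–70.2%), against 26.3% (25.3–27.3%) in its exons. Exact transcript matches alone would have assigned 2000 sequences to AU020206, 26.3% of the minus strand.

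AU020206 was dense over most of its length and sparse next to its annotated start. In the 12 whole 1-kb bins of the gene the number of minus-strand sequences had a median of 652, with 140 in the bin nearest the start (82925001–82926000) and at least 415 in every other. The fullest bin, 82920001–82921000, held 903 at 351 ends, followed by 82924001–82925000 with 735 and 82917001–82918000 with 719. On the plus strand the fullest bins were 82895001–82896000 with 419, 82898001–82899000 with 306 and 82897001–82898000 with 299. Exon 2 of AU020206-201 (82925511–82925642) held 23 sequences at 114 ends per kb. Upstream of it, the 1295 nt between exons 1 and 2 held 28 sequences at 15.4 ends per kb, and the 48-nt exon 1 held a single sequence.

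Minus-strand sequences did not begin at the start of AU020206 in the GENCODE annotation, 82926985. A patch of 56 lay within 400 nt upstream of it, with 5′ ends from 18 to 353 nt before that base. The RefSeq start, used for the window below, lies farther upstream than the GENCODE start. In all, 62 sequences at 41 ends lay within 1 kb upstream. The RefSeq promoter window, 250 bases before to 50 after the RefSeq start, matched 46 of these minus-strand sequences at 31 ends and 0 plus-strand ones. It is printed because MILI-bound sequences cover 205 of its 300 bases, which are in capitals, as chr7:75782071-75782370 of GRCm38.p6 on the minus strand. The matching sequences place it at 82926957–82927256 in mm9.
AU020206 promoter window: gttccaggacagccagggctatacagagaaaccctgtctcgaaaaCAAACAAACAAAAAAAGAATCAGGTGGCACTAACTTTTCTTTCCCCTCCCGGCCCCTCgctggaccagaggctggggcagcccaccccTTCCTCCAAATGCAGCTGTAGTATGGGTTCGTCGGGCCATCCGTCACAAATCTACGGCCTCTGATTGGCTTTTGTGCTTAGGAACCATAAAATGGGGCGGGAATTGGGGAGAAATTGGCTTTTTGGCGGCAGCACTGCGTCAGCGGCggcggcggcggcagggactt
Motifs were searched on both strands. CCAAT occurred 3 times, all on the strand opposite the printed one, and 37.4% of the 32851 promoter windows in the table held it. TGACG, a core of the cyclic-AMP response element, occurred 2 times, also on the opposite strand, and 20.8% of windows held it. The MYB core AACNG did not occur in this window, and 80.3% of windows held it.

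Minus-strand sequences went on past the annotated 3′ end of AU020206 at low density. The 14428 nt between the genes held 200 of them at 141 ends, or 9.77 ends per kb, with 43 in the bin 82908001–82909000. Antisense to the last exon of Akap13 lay 39 at 31 ends, or 7.68 ends per kb. The 15459 nt farther left held 16 at 0.970 ends per kb. Transcripts that the annotation does not hold were not searched for.

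**Figure D2:**
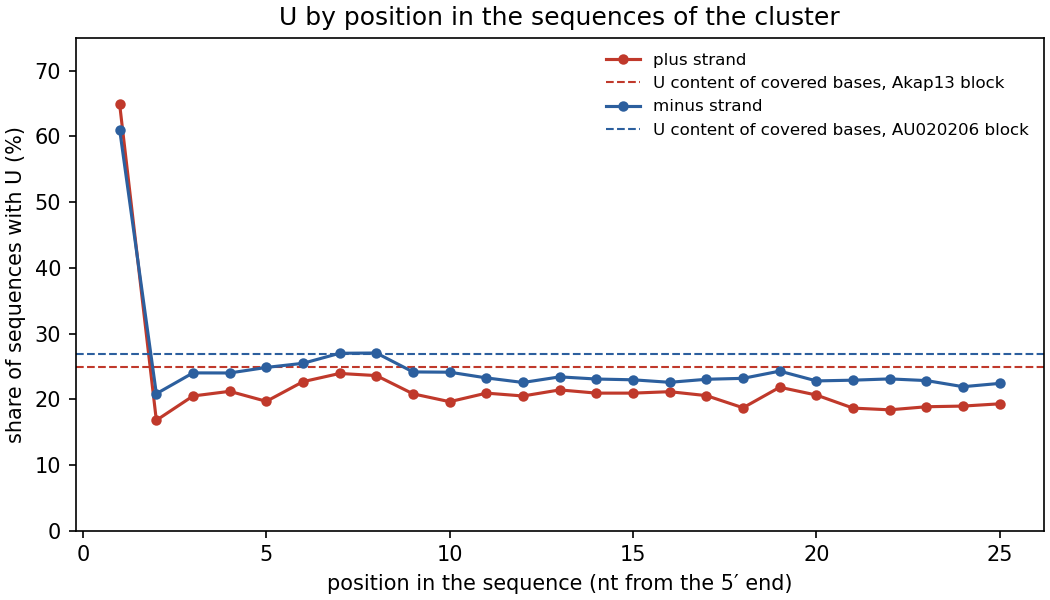
Share of sequences with U (vertical axis, %) at positions 1 to 25 from the 5′ end (horizontal axis, nt) for the plus and minus strands of the cluster. Dashed lines give the U content of the covered bases of each block; U stands far above them at position 1 only, at 64.9% on the plus strand and 61.0% on the minus strand.

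A 5′ U was carried by most sequences on both strands, well above the U content of the RNA they came from. The share was 64.9% on the plus strand (62.6–67.0%) and 61.0% on the minus strand (59.9–62.1%). The bases of each block were rebuilt from the overlapping sequences, in which 0 positions disagreed. U made up 24.9% of the covered bases of the Akap13 block and 27.0% of those of the AU020206 block. At positions 11 to 20, U averaged 20.8% on the plus strand and 23.1% on the minus strand. Among the other first bases of the cluster, A was the most frequent with 15.8%, before C with 13.4% and G with 8.99%.

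A 5′ U was less common in the cluster than elsewhere in the list. Over both strands it was 61.8% (60.8–62.7%), against 75.5% (75.4–75.5%) in the rest of the list. Counting each 5′ end once gave 52.8% (51.3–54.3%) in the cluster and 72.0% in the rest. The same dense windows that define clusters here (20 kb windows with 1000 or more sequences, joined where they touch) formed 510 clusters, and the share in this one was 36th from the lowest. Over the 510 the share had a median of 69.6% and ran from 32.9% to 82.5%. With single pooled values there was no replicate error to test these differences against.

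The lower share of U went with a denser use of positions that are not U. In the AU020206 block, 53.1% of the covered U positions served as a 5′ end (51.3–54.9%), as did 22.7% of the A positions, 22.1% of the C positions and 15.4% of the G positions. In the Akap13 block the same shares were 36.5% for U (34.0–39.1%), 11.9% for A, 11.2% for C and 5.75% for G. In the rest of the list they were 19.9% for U, 2.71% for A, 2.85% for C and 1.78% for G. So U was the most used base in both blocks and in the rest, and G the least. Every end is covered by its own sequence, so these shares hold for covered positions only. The sequences covered 83.4% of the AU020206 block and 80.4% of the Akap13 block. The uncovered part of the AU020206 block was 2166 nt in 51 stretches, the longest of 241 nt (82925611–82925851). In the Akap13 block it was 1381 nt in 65 stretches, the longest of 105 nt (82897078–82897182). Repeats were not annotated here, and their part in these gaps was not tested.

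**Figure D3:**
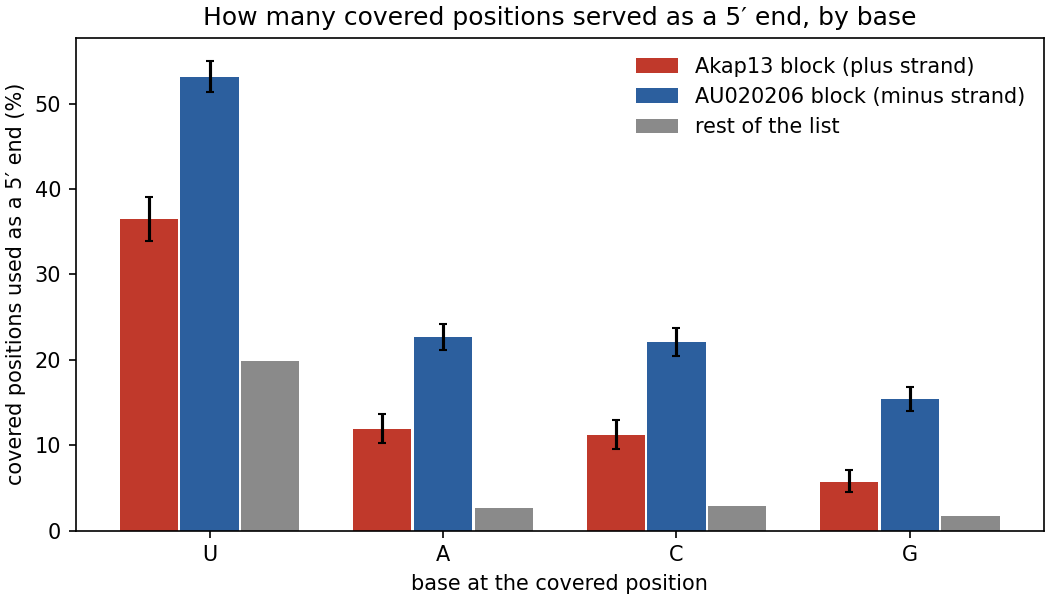
Share of covered positions that served as a 5′ end (vertical axis, %) by the base at the position, for the Akap13 block, the AU020206 block and the rest of the list. Error bars are exact 95% intervals for counting error, drawn for the 2 blocks; U is the most used base in each set, at 36.5%, 53.1% and 19.9%.

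Ends at which many lengths were recovered began with U more often. Of the 2088 ends of the cluster with a single sequence, 42.7% were U (40.6–44.9%). The share was 51.2% at ends with 2 sequences, 59.1% at ends with 3 and 73.7% at ends with 4 or 5. At the 157 ends with 6 or more it was 92.4% (87.03–95.99%). The rest of the list had the same order at a higher level, with 68.8%, 78.2%, 83.6%, 88.7% and 94.1% (93.6–94.5%) at ends of the same fullness. The intervals of the cluster and of the rest overlapped for the fullest ends and lay apart for all others. On the minus strand the single-sequence ends were U in 41.0% of cases (38.5–43.5%), and on the plus strand in 47.6% (43.4–51.9%).

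**Figure D4:**
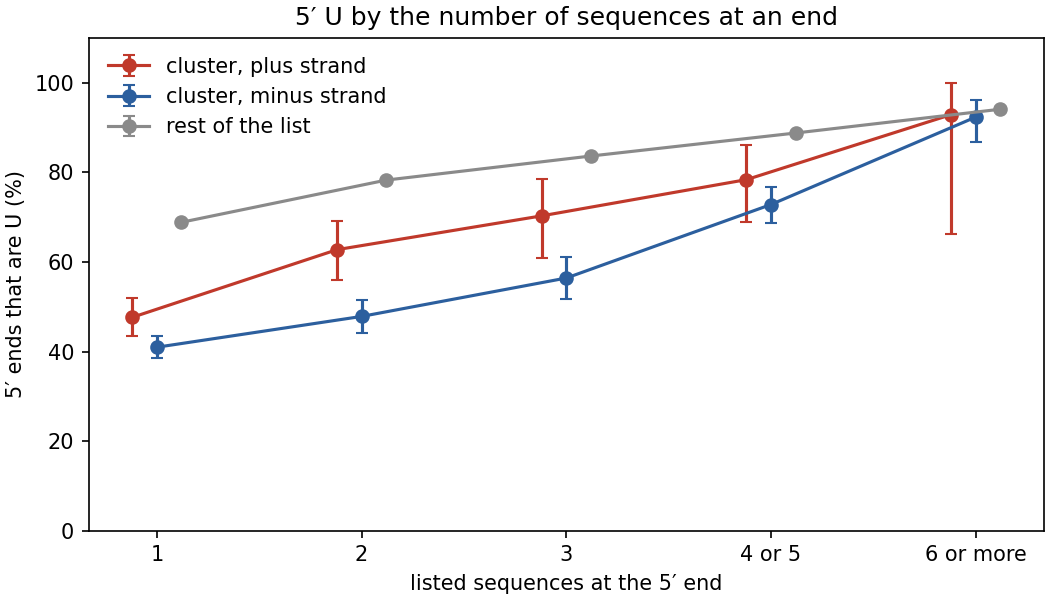
Share of 5′ ends that are U (vertical axis, %) against the number of listed sequences at the end, for the plus and minus strands of the cluster and for the rest of the list. Error bars are exact 95% intervals for counting error; the rest of the list lies above both strands at single-sequence ends (47.6%, 41.0% and 68.8%) and the sets come together at ends with 6 or more (92.9%, 92.3% and 94.1%).

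The sparse minus-strand stretches beside AU020206 had a higher share of 5′ U than the dense part of the gene. It was 86.5% (81.0–90.9%) for the 200 minus-strand sequences between the genes and 83.5% (73.9–90.7%) for the 85 to the right of AU020206. Within the gene it was 59.8% (58.4–61.1%) for the unannotated stretch of AU020206 and 60.0% (57.8–62.1%) for its 3009-nt exon. Nearer the start of the gene it was 89.3% (71.8–97.7%) for the 28 sequences between exons 1 and 2. It was 73.9% (51.6–89.8%) for the 23 of exon 2, and the single sequence of exon 1 did not begin with U. The sparse minus strand over the last exon of Akap13, with 7.68 ends per kb, had 64.1% (47.2–78.8%). That interval held the values of the unannotated stretch and of the 3009-nt exon. Farther left, the 16 minus-strand sequences had 93.8% (69.8–99.8%). Sparse plus-strand stretches also had shares of 70% or more, from few sequences. It was 82.6% (61.2–95.05%) for the 23 between the genes and 100% (73.5–100%) for the 12 right of AU020206. It was 87.5% (47.3–99.7%) for the 8 in AU020206 and 70% (55.4–82.1%) for the 50 before exon 36. Of these intervals, only that right of AU020206 lay above the interval of exon 38. Inside the Akap13 block the share showed no order by density. There exon 36, with 57.8 ends per kb, had 55.0% (38.5–70.7%), intron 36 had 77.1% (69.7–83.4%), intron 37 had 60.3% (54.2–66.2%), exon 37 had 48.4% (37.9–59.0%) and exon 38 had 64.8% (62.04–67.6%). Across the 510 clusters the share of 5′ U and the number of sequences per end had a Pearson coefficient of −0.57 and a Spearman coefficient of −0.57. With the number of ends per kb in place of sequences per end they were −0.20 and −0.18. These are descriptions over clusters of 1 pooled list, which share the libraries and differ in base content. The part of sampling depth in these shares was not tested.

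The ends of the cluster were fuller than those of the list. A 5′ end had 2.14 sequences on average, against 1.42 in the rest of the list, and 47.4% of ends had a single sequence, against 74.2%. Over the 510 clusters the number of sequences per end had a median of 1.79, and this cluster was 16th from the highest. Ends with 4 or more sequences numbered 765, 17.4% of the ends, against 4.03% in the rest. The minus strand had 2.23 sequences per end and the plus strand 1.85. The density of the stretch was a reason for choosing it, and these values carry no test.

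The lengths centred on 27 nt with a wider spread than in the list. The mean was 27.1 nt in the cluster (SD 1.57 nt over sequences) and 27.1 nt in the rest (SD 1.31 nt). Sequences of 26 to 28 nt made up 68.8% of the cluster and 77.0% of the rest. The strands were alike, with means of 27.2 nt on the plus strand (SD 1.48) and 27.1 nt on the minus strand (SD 1.59) and a mode of 27 nt on both. RNAs of about 28–30 nt had been cut from a gel beforehand, which limits the lengths. Sequences of 28 to 30 nt made up 39.9% of the cluster and 37.1% of the rest, so most listed lengths lay outside that range. By length, the share of 5′ U on the minus strand was 57.5% at 27 nt and 73.9% at 30 nt, and on the plus strand 63.4% and 73.3%. The share did not simply rise with length. At 24 nt it was 69.5% for 190 minus-strand sequences and 85.2% for 27 plus-strand sequences.

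The mark of sliced piRNAs, A at position 10, differed little from A at the positions after it. It was carried by 30.8% of the cluster (29.8–31.7%), against a mean of 29.1% A at positions 11 to 20, which ran from 27.8% to 30.4%, so its interval reached into that range. On the plus strand it was 30.6%, inside the range of 26.2% to 31.9% at positions 11 to 20. It was below the 32.3%, 35.8%, 31.2% and 31.1% A at positions 4, 5, 6 and 9, and above A at the other earlier positions. On the minus strand it was 30.8% (29.8–31.8%), above the range of 27.8% to 30.3% at positions 11 to 20, with an interval that reached into that range. In the rest of the list it was 31.7%, against a mean of 30.7%. Where the first base was not U, A stood at position 10 in 33.6% of sequences (32.1–35.2%), against 29.0% (27.8–30.2%) where it was U. On the plus strand the same shares were 37.0% (33.3–40.9%) and 27.2% (24.7–29.8%). On the minus strand they were 32.8% (31.2–34.6%) and 29.5% (28.2–30.8%). In the rest of the list they were 32.7% and 31.4%. Among small segments the share varied widely in both directions. The highest was 51.3% (34.8–67.6%) for the 39 minus-strand sequences antisense to the last exon of Akap13. Next were 46.2% (35.8–56.9%) for the 93 plus-strand sequences of exon 37 and 45.0% (29.3–61.5%) for the 40 of exon 36. Low shares were 17.4% (4.95–38.8%) for the 23 minus-strand sequences of exon 2 of AU020206-201 and 26.1% (10.2–48.4%) for the 23 plus-strand sequences between the genes. The 200 minus-strand sequences between the genes had 26% (20.1–32.7%). A at other positions was not compared by segment, and slicing in single segments was not tested. The 1183 plus-strand sequences of exon 38 had 29.0% (26.4–31.7%).

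Few ends had a partner on the opposite strand, and a 10-nt overlap was the most frequent among them. There were 15 pairs of opposite-strand 5′ ends that overlapped by 10 nt (exact Poisson 95% interval 8.40–24.7), while the other overlaps from 1 to 20 nt had 7.47 pairs on average. The ratio was 2.01 (1.12–3.31, counting error of the 10-nt pairs only), and 3.84 with each end weighted by its sequences. Overlaps of 4, 12 and 13 nt had 13 pairs each, within the interval of the 10-nt count. Of the 15 pairs, 9 lay in the last exon of Akap13, 2 in its intron 37 and 4 in AU020206. Over all overlaps from 1 to 20 nt, 107 pairs lay in that exon, 13 in intron 37 and 31 in AU020206. A further 4 lay between the genes, 1 in exon 37 and 1 in intron 36. Most pairs thus lay in the last exon at any overlap, and the 10-nt pairs were not more concentrated there. The plus-strand end was U in 14 of the 15 pairs at 10 nt, against 57.2% of all plus-strand ends of the cluster. In 13 of the 15 pairs an end on either strand had several sequences. Plus-strand ends were U in 47.6% of cases with a single sequence, 78.4% with 4 or 5 and 92.9% with 6 or more. The pairs were not compared with ends of like fullness or with pairs at other overlaps. The minus-strand end was U in 7 of the 15, against 51.5% of all minus-strand ends, and both ends were U in 6. In such a pair, a U at the start of a sequence sits opposite the A at position 10 of its partner.

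The pairs with the most listed sequences show this layout, with the 10 shared bases in capitals; both lie in the last exon of Akap13.
Pair 1, plus strand, chr7:82895961-82895990, 6 sequences at the end: TCAAATGTCAggacagcttagccaagagca
Pair 1, minus strand, chr7:82895941-82895970, 2 sequences at the end: TGACATTTGAgaagaactgtgtacacagct
Pair 2, plus strand, chr7:82897501-82897530, 7 sequences at the end: TAGACCTGACagaaaatcagagagccctgc
Pair 2, minus strand, chr7:82897485-82897510, 1 sequence at the end: GTCAGGTCTAggtgggagtcaggctc
The plus-strand end of the second pair is also among the fullest ends printed above. Its minus-strand partner begins with G and has A at position 10.

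**Figure D5:**
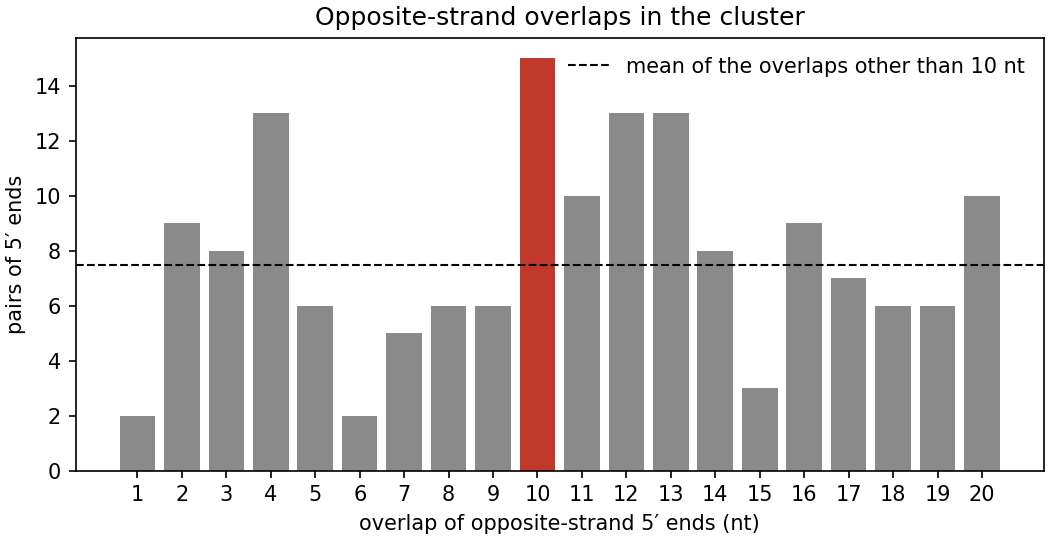
Pairs of opposite-strand 5′ ends in the cluster (vertical axis, count of distinct ends) by their overlap (horizontal axis, nt), with the 10-nt overlap in red and a dashed line at the mean of the others. The 10-nt bar stands at 15 pairs, above 13 at 4, 12 and 13 nt and a mean of 7.47.

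No stepwise pattern along a strand was detectable. Distinct 5′ ends directly after a 3′ end numbered 1269, against a mean of 1321 over distances 2 to 20 (1259 to 1383), a ratio of 0.961. The base directly after a 3′ end was U in 25.02% of the plus-strand ends where it was known (22.6–27.6%), against 24.5% on average at the next 9 bases. On the minus strand it was U in 26.4% (25.1–27.8%), against 25.9%. That base was known for 1171 of 1267 and for 4100 of 4253 distinct 3′ ends, since it had to be covered by another sequence. Each end counts once in a list this dense, which limits what these counts can show.

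Among clusters of the same layout this one had the most sequences. Of the 510 clusters, 117 had between 10% and 90% of their sequences on the plus strand, and 62 of these were convergent, with the median plus-strand end left of the median minus-strand end. The next 3 by size were chr9:119340001-119400000 with 7040 sequences, chr14:65420001-65440000 with 3776 and chr6:83280001-83320000 with 3761. The share of 5′ U was 61.8% in the Akap13 and AU020206 cluster, against 68.3% on chromosome 9, 68.4% on chromosome 14 and 68.1% on chromosome 6. Among the 62 it was the second lowest. These shares cover both strands. On the fuller strand alone the share of 5′ U was 61.0% here, against 67.9%, 67.1% and 65.8% on chromosomes 9, 14 and 6. U content on that strand was 26.1% here, 25.5% on chromosome 9, 27.2% on chromosome 14 and 25.3% on chromosome 6. The part of base content in these shares was not tested. Covered positions other than U served as an end in 14.8% of cases on the fuller strand here, against 7.40%, 11.9% and 9.57% on chromosomes 9, 14 and 6. The dense parts of the strands lay apart in all 4. Between the middle 90% of the ends of each strand there were 15222 nt here, against 1426, 3685 and 19557 nt on chromosomes 9, 14 and 6. Pairs at 10 nt numbered 15 here, against 24, 2 and 2, beside means over the other overlaps of 7.47 here and 15.5, 2.21 and 1.11 there.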

How the data were processed

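Small RNAs bound to MILI were sequenced from 2 Tdrd9-/- and 2 Tdrd9+/- testis libraries. RNA of about 28–30 nt was eluted from a gel and made into libraries with an Illumina small RNA kit, per the labels' protocols. The authors deposited 1 table that gives each sequence with its 1-based start and end, its chromosome and its strand, and no counts. Per the submitters' processing notes the build is mm9. For the aligner and read filters, nothing is given in the sources used here. Of the 4906138 rows, 0 repeated a sequence and 0 had a length that differed from their positions.

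Members were taken by position. The members, gene names and measures were chosen with earlier results of these data known. Genes are named where their transcripts or introns held at least 1% of the members, which Akap13 and AU020206 did. Sequences were matched exactly and whole to 141767 GENCODE M21 transcripts in both orientations. Exons were placed in mm9 from the positions of the matching sequences, and no coordinate was converted. The promoter window is from RefSeq (GRCm38.p6). A recurring end shares its first 20 nt with another listed position. Matching, overlap, distance and rebuilding steps were tested on simulated data. The planned genotype test was not run, because the table names no library. The tools were matplotlib 3.10.9, scipy 1.17.1, pandas 2.3.3 and numpy 2.4.6 under Python 3.11.15.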

Additional observations from a re-analysis of the deposited data

How the results depend on the processing

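Counting each 5′ end once in place of each sequence moved the plus-strand share to 22.5%, the share of 5′ U to 52.8% over both strands, 57.2% on the plus strand and 51.5% on the minus strand, the share sense to AU020206 to 19.9% (21.2% by sequence) and the share matching Akap13 in either orientation to 17.2% (14.9% by sequence). Weighting each end by its sequences moved the 10-nt ratio to 3.84. With 10 kb windows of 500 or more sequences, 127 clusters were convergent in place of 62, and this one came apart into 2 clusters of nearly single strand, with 1803 and 7432 sequences. Of the 60 values that could change, the other 52, from limiting lengths to 24 to 31 nt, moving the bounds, leaving out recurring ends and other overlaps or distances, stayed within the counting interval, 1 SD over sequences for the mean length or, for counts, a factor of 1.5. Leaving out matches to several genes had nothing to leave out, with 0 such sequences. No paired analysis was possible because the table names no library, and for the same reason no replicate could be left out. Depth per library is unknown, and the number of distinct sequences has a ceiling in dense stretches.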

Other observations

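Some members shared a stretch with sequences listed elsewhere. No such share is given for the rest of the list, so these values have no reference. No sequence is repeated in the list, so an identical sequence at another place could not be counted. A stretch of 20 nt was shared in sense with a sequence outside the cluster by 38 of the 1838 plus-strand members (2.07%) and by 240 of the 7605 minus-strand members (3.16%). Of the 240, 134 lay in the unannotated stretch of AU020206 and 95 in its 3009-nt exon. A stretch of 20 nt complementary to a sequence elsewhere was held by 11 plus-strand members (0.598%), 8 of them in Akap13 intron 37, and by 40 minus-strand members (0.526%). The matching sequences lay on 20 chromosomes in sense and on 19 in antisense. Recurring starts were carried by 36 members at 16 ends.

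Antisense matches to another gene were rare. Among all members, 3 were antisense to the pseudogene Gm26729, and 0 were sense to it. That gene and the values of single 1-kb bins were named after their values were seen.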
